A study of Mus musculus with 13 samples.

Results

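Polycomb repressive complex 2 (PRC2) was followed through 9 of its genes in bulk RNA-seq of HSPCs, the stem and progenitor cells of blood, taken from mouse bone marrow. The genes were chosen by symbol as the 2 alternative catalytic subunits (Ezh2, Ezh1), the core subunits Suz12 and Eed, the histone-binding subunits Rbbp4 and Rbbp7, and the accessory subunits Jarid2, Mtf2 and Phf19. They are 9 of the 55421 genes listed in the tables, and all 9 were among the 19289 genes that passed the filter on low counts. The smallest count of any of them in any library was 605 reads. On GRCm38 the catalytic genes lie at chr6:47530139-47595341 (Ezh2) and chr11:101191115-101226463 (Ezh1), and the core genes at chr11:79993106-80034123 (Suz12) and chr7:89954654-89980983 (Eed). Rbbp4 lies at chr4:129307100-129335370 and Rbbp7 at chrX:162760402-162779092, and the accessory genes at chr13:44729474-44921643 (Jarid2), chr5:108065674-108109004 (Mtf2) and chr2:34893757-34914026 (Phf19); all counts are of whole genes.

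The 10 libraries fall into 4 genotypes: 2 libraries are wild type, 2 are Setd2 knockout, 3 are Srsf2 mutated, and 3 have both changes and are called double mutant here. Setd2 methylates histone H3 at lysine 36 in transcribed genes, and Srsf2 is a splicing factor. For the 3 single-cell samples of the series, which were not analysed here, the labels describe c-Kit-positive cells without lineage markers, from mice with Mx1-Cre, whose recombinase pIpC switches on in blood cells and other cells that respond to interferon. Those cells carried neither change, the Srsf2 allele P95H, or P95H with a floxed Setd2 gene, and came from recipients of transplanted marrow 4 weeks past the pIpC treatment. For the bulk libraries the labels give no allele, sort, time, strain, age or sex, and do not say whether replicates came from separate mice, so p-values measure only the spread between these libraries, which may be technical.

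PRC2 places methyl groups on lysine 27 of histone H3, a mark of silenced genes. Ezh2 and Ezh1 carry the catalytic domain and occupy the same place in the complex, with Ezh2 the more active enzyme and the one tied to dividing cells. Suz12 and Eed are needed for activity, Eed also binds the finished mark, and the accessory subunits guide the complex to DNA. In blood the complex restrains genes of other lineages and fetal genes, and loss of EZH2 function recurs in myelodysplastic syndrome, the disease named in the title of the series.

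Library totals ranged from 32117387 to 50445434 counts. A drop of Setd2 counts cannot check the Setd2 labels, since gene counts include exons outside a deleted part: Setd2 was at 151.7 CPM in wild type, 221.7 with Setd2 knockout, 197.1 with Srsf2 mutated and 130.4 in double mutant (group means). CPM is the count scaled to a fixed library size, after adjustment of library totals. Markers of blood lineages differed between the groups. The summed level of 11 erythroid markers was 462.7 to 484.1 CPM in wild type, 1254 to 1288 with Setd2 knockout, 5716 to 7211 with Srsf2 mutated and 19130 to 20400 in double mutant, with no marker at 0. The sum of 8 early neutrophil markers was 26310 to 26700 CPM in wild type and 7246 to 7409 in double mutant. The sum of 9 late neutrophil markers was 16440 to 22930 CPM in wild type, 5871 to 6414 with Setd2 knockout, 14150 to 17540 with Srsf2 mutated and 32800 to 33520 in double mutant. The 8 B lymphoid markers summed to 106.1 to 122.6, 87.67 to 88.36, 1022 to 1079 and 273.5 to 289.7 CPM in the same order. All 8 rose in Srsf2 mutated against wild type (28.5% of all tested genes rose). All 8 fell in double mutant against Srsf2 mutated (15.9% fell). In Setd2 knockout against wild type 1 rose and 5 fell (18.7% and 19.9% of all tested genes). In double mutant against Setd2 knockout all 8 rose (26%). The 9 stem cell markers, among them Kit and Cd34, were all detected in each group, with sums of 769.4 to 847.3 CPM in wild type and 371.7 to 386.1 in double mutant. Ddx3y, Kdm5d, Eif2s3y and Uty, all Y-linked, had 0 counts in both wild type and both Setd2 knockout libraries, while Ddx3y averaged 111.2 CPM in Srsf2 mutated and 123.6 in double mutant. Xist averaged 485.5 CPM in wild type and at most 7.405 in the other groups, so sex chromosome genes separate the groups as well. In Setd2 knockout the 5 sex-linked genes, Xist among them, summed to only 0.5617 to 0.6348 CPM. Y-linked counts were present only with mutated Srsf2, so differences by sex chromosome and by Srsf2 mutation cannot be told apart here. The part of the marker and sex chromosome differences in the results was not tested. In bulk samples fewer cells of a type and less RNA per cell cannot be told apart.

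Compared per length, as FPKM (counts scaled to gene length and library total), Rbbp7 and Rbbp4 stood highest in wild type. Both also belong to complexes outside PRC2. Rbbp7 made up 36.9% of the summed FPKM of the 9 genes, Rbbp4 21.8%, Suz12 15%, Ezh2 7.89%, Mtf2 6.17%, Eed 5.1%, Jarid2 3.08%, Phf19 2.41% and Ezh1 1.72%. Rbbp7 was highest in all 4 groups. Ezh1 was lowest in wild type and both single mutants, while in double mutant Phf19 (4.147 ± 0.38 FPKM, SD, n = 3) lay below Ezh1 (5.087 ± 0.387). Suz12 passed Rbbp4 in Setd2 knockout (51.85 and 48.87 against 46.2 and 44.48 FPKM), while in Srsf2 mutated (44.77 ± 1.9 against 46.73 ± 3.07 FPKM, SD, n = 3) and double mutant (38.13 ± 0.257 against 38.64 ± 1.32) they lay within each other's spread. Mtf2 (16.34 ± 1.29) and Eed (13.47 ± 0.105) changed places: in double mutant Eed was at 20.73 ± 0.72 FPKM and Mtf2 at 12.6 ± 0.185. The listed length counts every annotated exon, which lowers the FPKM of genes with rarely used exons.

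**Figure D1:**
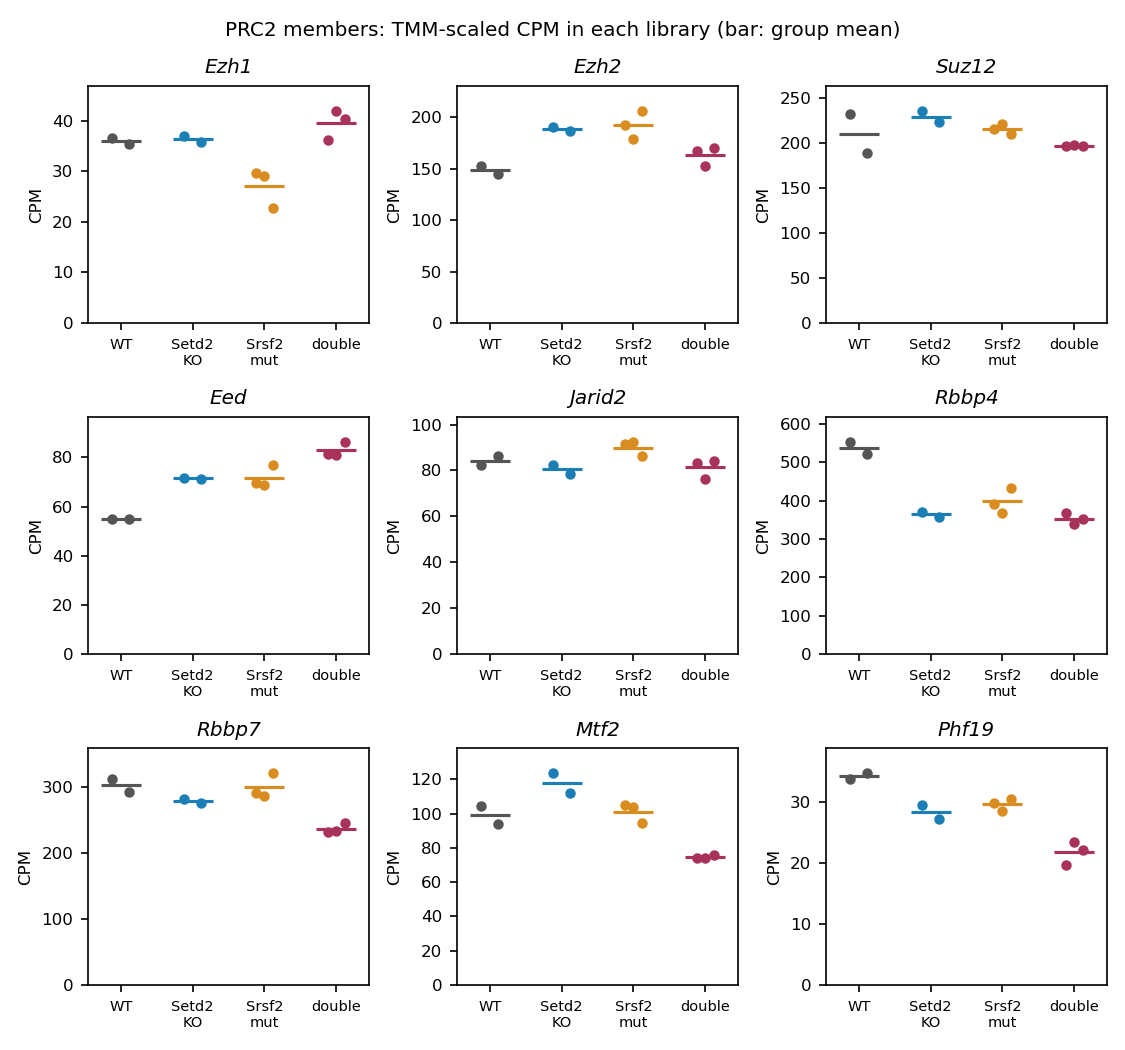
Scaled CPM of each of the 9 PRC2 genes (y axis, from 0) in every library, by genotype (x axis; points are libraries, bars are group means). Ezh2 lies highest in Setd2 knockout and Srsf2 mutated, and Mtf2, Phf19 and Rbbp7 lie lowest in double mutant.

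Ezh2, the main H3K27 methyltransferase of dividing cells, was higher in both single mutants than in wild type and lower in double mutant than in either single mutant. Its levels were 152.6 and 144.6 CPM in wild type, 191.2 and 186.8 with Setd2 knockout, 192.8, 178.9 and 205.9 with Srsf2 mutated, and 167.7, 152.9 and 170.0 in double mutant. Both single mutants stood above wild type without overlap, and the double mutant libraries lay between, with the lowest of them just above the higher wild type library. Ezh2 rose by 0.35 ± 0.0829 (log2, SE) in Setd2 knockout against wild type (adjusted p = 0.00365) and by 0.37 ± 0.0764 in Srsf2 mutated against wild type (adjusted p = 0.000617). It fell by 0.24 ± 0.0677 in double mutant against Srsf2 mutated (adjusted p = 0.0129) and by 0.21 ± 0.0753 in double mutant against Setd2 knockout (adjusted p = 0.0288). The first pair of calls held in every alternative processing. Without double mutant library 2 the adjusted p was 0.0869 against Srsf2 mutated (-0.19 on the log2 scale) and 0.133 against Setd2 knockout (-0.16). The call against Setd2 knockout was also lost with median-of-ratios scaling (adjusted p = 0.0609), without Setd2 knockout library 1 (0.0652) and without double mutant library 1 (0.0517).

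Ezh1, the paralog that predominates in resting cells, went the other way in Srsf2 mutated. Its levels were 36.65 and 35.45 CPM in wild type, 36.99 and 35.91 with Setd2 knockout, 29.73, 29.08 and 22.78 with Srsf2 mutated, and 36.28, 41.88 and 40.30 in double mutant. All 3 Srsf2 mutated libraries lay below every other library. Ezh1 fell by 0.41 ± 0.108 (log2, SE) against wild type (adjusted p = 0.00476), and was 0.54 ± 0.0976 higher in double mutant than in Srsf2 mutated (adjusted p = 0.000415). The call against wild type missed the threshold with the stricter filter (adjusted p = 0.0636) and with total counts only (0.0556). Between Setd2 knockout and wild type the difference was 0.02 ± 0.118 (adjusted p = 0.938).

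The ratio of Ezh2 to Ezh1 within a library does not depend on how libraries are scaled. As a ratio of FPKM it was 4.639 and 4.544 in wild type, 5.759 and 5.796 with Setd2 knockout, 7.227, 6.855 and 10.07 with Srsf2 mutated, and 5.15, 4.067 and 4.699 in double mutant. The ratio was highest in Srsf2 mutated, with no overlap with any other group, and double mutant overlapped wild type. Srsf2 mutated against double mutant gave an exact two-sided permutation p = 0.1, the smallest that 3 against 3 libraries can give. Setd2 knockout against wild type gave p = 0.333, the smallest that 2 against 2 can give by the exact test. Over the 6 ratios computed here in 4 comparisons none could pass an adjusted threshold.

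**Figure D2:**
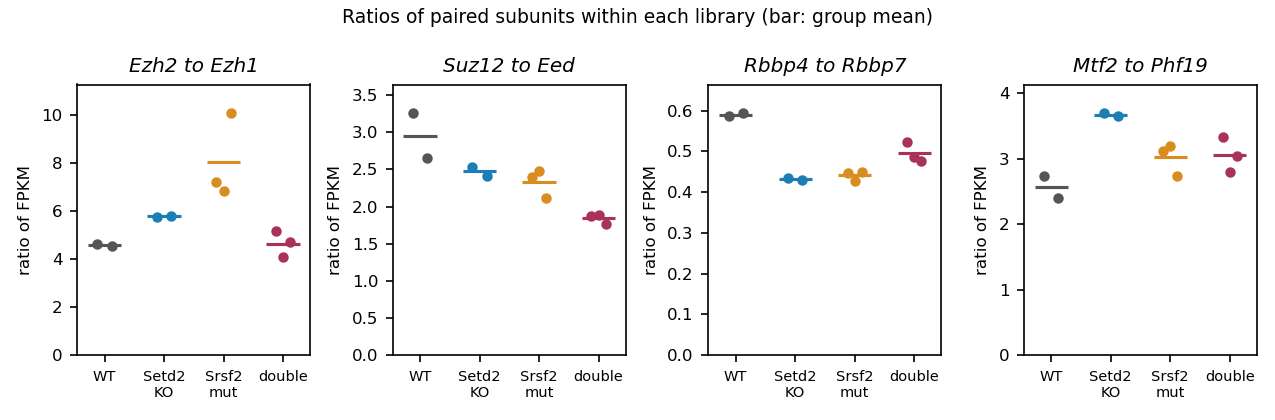
Ratio of FPKM of paired PRC2 genes (y axes, from 0) in every library, by genotype (points are libraries, bars are group means). Ezh2 to Ezh1 peaks in Srsf2 mutated, Suz12 to Eed is lowest in double mutant, and Rbbp4 to Rbbp7 is highest in wild type.

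Ezh2, Suz12 and Phf19 were the members with an exact match in the promoter to either E2F-type motif searched here. Near matches were not searched. The matched stretches are shown because E2F factors drive genes of the cell cycle and proliferation genes stand beside the members below. The motifs TTTCCCGC and TTTGGCGC were searched on both strands in windows of 300 bases, from 250 before to 50 after each RefSeq start (GRCm38.p6). All 9 members matched an entry by symbol. Of 32817 promoters, 1.07% held the first motif, 0.515% the second and 1.56% either. Counted by gene, 3 of the 9 members held either. CCAAT, on either strand, was in 37.4% of promoters and in those of 7 members. Jarid2 and Mtf2 have 2 promoters each, so the counts of members and the shares of promoters are not in the same unit. A match is a description of the letters and not a site. Stretches of 60 bases, written in the direction of the gene with the match in capitals, are at chr6:47595011-47595070 (minus strand) for Ezh2, where the match begins 3 bases after the start, chr11:79992861-79992920 (plus) for Suz12, and chr2:34914151-34914210 (minus) for Phf19, where the motif reads in reverse.
Ezh2: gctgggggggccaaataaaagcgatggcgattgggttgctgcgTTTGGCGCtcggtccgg
Suz12: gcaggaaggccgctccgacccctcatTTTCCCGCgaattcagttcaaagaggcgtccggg
Phf19: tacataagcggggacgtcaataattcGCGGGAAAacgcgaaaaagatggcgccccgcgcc
In double mutant against Srsf2 mutated the log2 difference was -0.24 ± 0.0677 (SE) for Ezh2, -0.44 ± 0.0842 for Phf19 and -0.13 ± 0.0712 for Suz12, which was not called (adjusted p = 0.182). All 3 had libraries that did not overlap, as did all 9 members and 45.4% of all tested genes. In Srsf2 mutated against wild type the differences were 0.37 ± 0.0764 for Ezh2, -0.21 ± 0.0924 for Phf19 and 0.04 ± 0.0796 for Suz12. Of these only Ezh2 was called. Whether the members differ from each other was not tested.

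Of the core pair, Eed rose in both single mutants and was highest in double mutant, while Suz12 was called in 1 comparison. Eed, the subunit that reads the finished mark, was at 55.09 and 54.87 CPM in wild type, 71.62 and 71.24 with Setd2 knockout, 69.43, 68.94 and 76.97 with Srsf2 mutated, and 81.26, 81.09 and 86.10 in double mutant. Every mutant library lay above wild type and every double mutant library above both single mutants. Eed rose by 0.38 ± 0.0819 (log2, SE) in Setd2 knockout (adjusted p = 0.00182) and by 0.38 ± 0.0754 in Srsf2 mutated (adjusted p = 0.000438), both against wild type. The further rise in double mutant was 0.21 ± 0.0665 over Srsf2 mutated (adjusted p = 0.0244) and 0.21 ± 0.0746 over Setd2 knockout (adjusted p = 0.0247). Neither of these last calls was firm. Against Srsf2 mutated it was lost with upper-quartile scaling (adjusted p = 0.0879), no filter (0.0606), total counts only (0.219), a fit of the compared groups alone (0.0518), and without Srsf2 mutated library 1 (0.179), library 2 (0.0599) or double mutant library 3 (0.107). Against Setd2 knockout it was lost with upper-quartile scaling (0.0698), no filter (0.081), total counts only (0.764), and without Setd2 knockout library 1 (0.264), library 2 (0.26) or double mutant library 3 (0.0883).

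Suz12, the scaffold of the complex, was at 231.6 and 188.1 CPM in wild type, 234.7 and 222.5 with Setd2 knockout, 215.6, 220.5 and 210.0 with Srsf2 mutated, and 196.1, 197.5 and 196.7 in double mutant. The wild type libraries bracketed those of Srsf2 mutated and double mutant. The one call was double mutant against Setd2 knockout, where Suz12 fell by 0.22 ± 0.0792 (log2, SE; adjusted p = 0.0315). That call was lost with median-of-ratios scaling (adjusted p = 0.0698), the stricter filter (0.0562), DESeq2 (0.0617), and without Setd2 knockout library 1 (0.0954) or double mutant library 1 (0.0822), 2 (0.0723) or 3 (0.0777). Setd2 knockout against wild type was 0.12 ± 0.0871 (adjusted p = 0.285), and 0.28 without wild type library 1 (adjusted p = 0.0169). The FPKM ratio of Suz12 to Eed was 2.954 ± 0.424 in wild type (SD, n = 2), 2.476 ± 0.0841 with Setd2 knockout (n = 2), 2.33 ± 0.192 with Srsf2 mutated (n = 3) and 1.841 ± 0.0636 in double mutant (n = 3). Double mutant did not overlap any other group.

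Rbbp4, a histone chaperone shared with the NuRD, Sin3 and CAF-1 complexes, was the member furthest below wild type in both single mutants. It was at 551.8 and 521.4 CPM in wild type, 369.7 and 358.0 with Setd2 knockout, 391.4, 368.4 and 434.1 with Srsf2 mutated, and 366.4, 340.2 and 351.1 in double mutant. Both wild type libraries stood above all 8 mutant libraries. Rbbp4 fell by 0.56 ± 0.0824 (log2, SE) in Setd2 knockout (adjusted p = 6.73e-05) and by 0.43 ± 0.0743 in Srsf2 mutated (adjusted p = 0.000136), and both calls held in every alternative. Double mutant against Srsf2 mutated was -0.17 ± 0.0671 (adjusted p = 0.0566), and it was called in 8 of 14 alternatives: DESeq2 (0.0396), upper-quartile scaling (0.0124), no filter (0.0392), the stricter filter (0.0372), the replicate block (0.0376), total counts only (0.00264), and without Srsf2 mutated library 1 (0.0392) or 2 (0.0152). Of the 75-base stretches of Rbbp4 transcripts, 15.4% also occur in other genes, 8.2% in the antisense gene Gm26722, and the strandedness of the counts is not given in the sources used here, so part of its count may belong to these neighbours.

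Rbbp7, its X-linked paralog, showed another pattern: 313.2 and 292.5 CPM in wild type, 282.3 and 276.8 with Setd2 knockout, 291.4, 287.2 and 321.0 with Srsf2 mutated, and 232.5, 233.0 and 245.7 in double mutant. The 3 double mutant libraries were the lowest of all 10. Rbbp7 fell by 0.34 ± 0.0627 (log2, SE) against Srsf2 mutated (adjusted p = 0.000495) and by 0.24 ± 0.0697 against Setd2 knockout (adjusted p = 0.0092), and was not called in either single mutant against wild type (-0.12, adjusted p = 0.253, and -0.01, adjusted p = 0.879). The ratio of Rbbp4 to Rbbp7 was 0.5897 ± 0.00488 in wild type (SD, n = 2), 0.4331 ± 0.00389 with Setd2 knockout (n = 2), 0.4411 ± 0.0126 with Srsf2 mutated (n = 3) and 0.4952 ± 0.0257 in double mutant (n = 3). Double mutant lay between wild type and the single mutants without overlap. Txlng, on the other strand, shares 5.98% of the exon bases of Rbbp7 and had 885 to 1905 reads. Part of the Rbbp7 count may belong to it.

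Mtf2 and Phf19 are Polycomb-like subunits, which bring PRC2 to unmethylated CpG-rich DNA, and both were lowest in double mutant. Mtf2 was at 104.5 and 94.08 CPM in wild type, 123.5 and 112.3 with Setd2 knockout, 105.2, 103.6 and 94.61 with Srsf2 mutated, and 74.29, 74.35 and 76.14 in double mutant. All 3 double mutant libraries lay below every other library. Tmed5, on the other strand, shares 6.93% of the exon bases of Mtf2 and had 3484 to 5682 reads. It averaged 95.7 CPM in wild type, 94.4 with Setd2 knockout, 117 with Srsf2 mutated and 114 in double mutant. Part of the Mtf2 count may belong to it. Mtf2 fell in double mutant by 0.43 ± 0.0691 (log2, SE) against Srsf2 mutated (adjusted p = 0.000129) and by 0.65 ± 0.0761 against Setd2 knockout (adjusted p = 2.35e-06), in every alternative. It rose by 0.25 ± 0.084 in Setd2 knockout against wild type (adjusted p = 0.0291), a call lost without wild type library 2 (0.17, adjusted p = 0.22) or Setd2 knockout library 1 (0.19, adjusted p = 0.24).

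Phf19 was at 33.76 and 34.72 CPM in wild type, 29.58 and 27.21 with Setd2 knockout, 29.80, 28.61 and 30.52 with Srsf2 mutated, and 19.72, 23.53 and 22.15 in double mutant. Wild type was highest, double mutant lowest, and the single mutants overlapped each other in between. Phf19 fell in double mutant by 0.44 ± 0.0842 (log2, SE) against Srsf2 mutated (adjusted p = 0.000662) and by 0.38 ± 0.0932 against Setd2 knockout (adjusted p = 0.00281), in every alternative. Setd2 knockout against wild type was -0.27 ± 0.102 (adjusted p = 0.0465), and this call was lost with each of the 4 libraries left out in turn: without wild type library 1 (adjusted p = 0.0992) or 2 (0.162), and without Setd2 knockout library 1 (0.104) or 2 (0.29). It was also lost with upper-quartile scaling (0.182), no filter (0.0786), the stricter filter (0.195) and total counts only (0.713).

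Jarid2, which helps recruit PRC2 and stimulates its enzyme, was not called in any comparison. It was at 82.36 and 86.25 CPM in wild type, 82.31 and 78.56 with Setd2 knockout, 91.50, 92.21 and 86.18 with Srsf2 mutated, and 83.29, 76.39 and 84.24 in double mutant. Its smallest adjusted p was 0.0992, for double mutant against Srsf2 mutated (-0.15 on the log2 scale), where the groups did not overlap; it was 0.0291 without Srsf2 mutated library 3 and 0.0236 with upper-quartile scaling, which also gave a call in Srsf2 mutated against wild type (0.19, adjusted p = 0.0344).

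**Figure D3:**
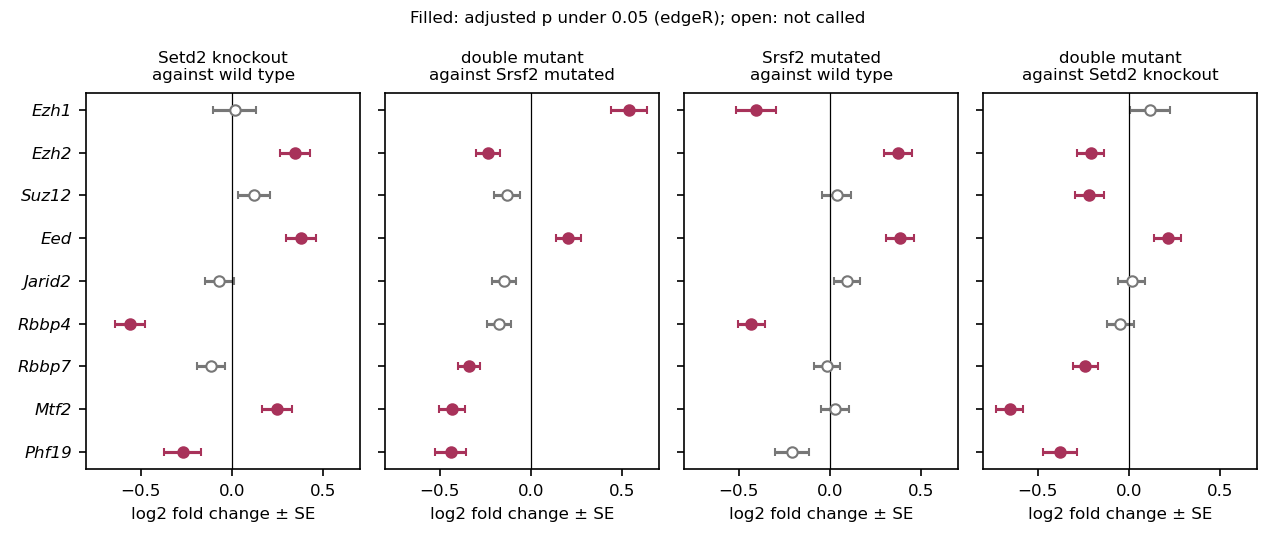
Log2 fold change with its SE (x axes) of the 9 PRC2 genes in the 4 comparisons; filled points have an adjusted p under 0.05. Rbbp4 falls and Ezh2 and Eed rise in both comparisons with wild type, and Mtf2, Phf19 and Rbbp7 fall in both comparisons of double mutant with a single mutant.

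Counts of members called stand here beside those of all genes. In Setd2 knockout against wild type 3 rose and 2 fell, where 38.6% of all tested genes were called, 18.7% higher and 19.9% lower. In Srsf2 mutated against wild type 2 rose and 2 fell, against a background of 56.3% called, 28.5% higher and 27.8% lower. In double mutant against Srsf2 mutated 2 rose and 4 fell, where 33.8% were called, 17.8% higher and 15.9% lower. In double mutant against Setd2 knockout 1 rose and 5 fell, where 51.8% were called, 26% higher and 25.8% lower. With median-of-ratios scaling the members higher and lower were 3 and 2, 2 and 2, 2 and 4, and 1 and 3 in these comparisons. Upper-quartile scaling gave 3 and 1, 3 and 2, 1 and 6, and 0 and 5. Total counts only gave 4 and 1, 3 and 1, 1 and 7, and 0 and 6. The median log2 difference of the 9 was 0.02, 0.03, -0.17 and -0.21 in these comparisons, against 0.04, 0.08, 0.0049 and 0.0079 over all tested genes. Non-overlap of the libraries was seen for 9 of 9 members in double mutant against Srsf2 mutated, where 45.4% of all genes showed it, for 7 in Setd2 knockout against wild type (73.1%), for 5 in Srsf2 mutated against wild type (66.5%), and for 6 in double mutant against Setd2 knockout (73.5%). Without 1 library the members called in Setd2 knockout against wild type were 3 (wild type library 2 or Setd2 knockout library 1 left out), and in double mutant against Setd2 knockout 3 (Setd2 knockout library 1 left out). Comparisons that share a group are not independent.

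The effect of Setd2 loss was compared between cells with and without the Srsf2 mutation by the interaction term, the log2 difference of the Setd2 effects. Ezh2 rose with Setd2 loss in Srsf2 wild type cells and fell with it in Srsf2 mutated cells, and the difference was -0.58 ± 0.107 (SE; adjusted p = 0.000547). Mtf2 did likewise, with -0.68 ± 0.109 (adjusted p = 0.000159), and for both the interaction was called in every alternative. For Ezh1 it was 0.52 ± 0.153 (adjusted p = 0.016) and for Rbbp4 0.39 ± 0.106 (adjusted p = 0.0108). These last calls depended on the processing: with upper-quartile scaling the adjusted p was 0.0728 for Ezh1 and 0.0908 for Rbbp4, and with total counts only 0.345 and 0.618. Ezh1 was also lost without wild type library 1 (0.0521) or Setd2 knockout library 1 (0.0748) or 2 (0.0947), and Rbbp4 without Setd2 knockout library 1 (0.0612) or 2 (0.0913) or Srsf2 mutated library 1 (0.0545). The other 5 members were not called, with adjusted p from 0.0996 (Rbbp7) to 0.606 (Jarid2). The interaction was called for 31.9% of all tested genes, 16.7% higher and 15.2% lower, beside 2 and 2 of the 9 members; without either Setd2 knockout library 2 members were called. With upper-quartile scaling 0 members were higher and 5 lower, and with total counts only 0 and 7, while among all called genes the share that was higher went from 52.4% to 37.6% and 24.4%.

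**Figure D4:**
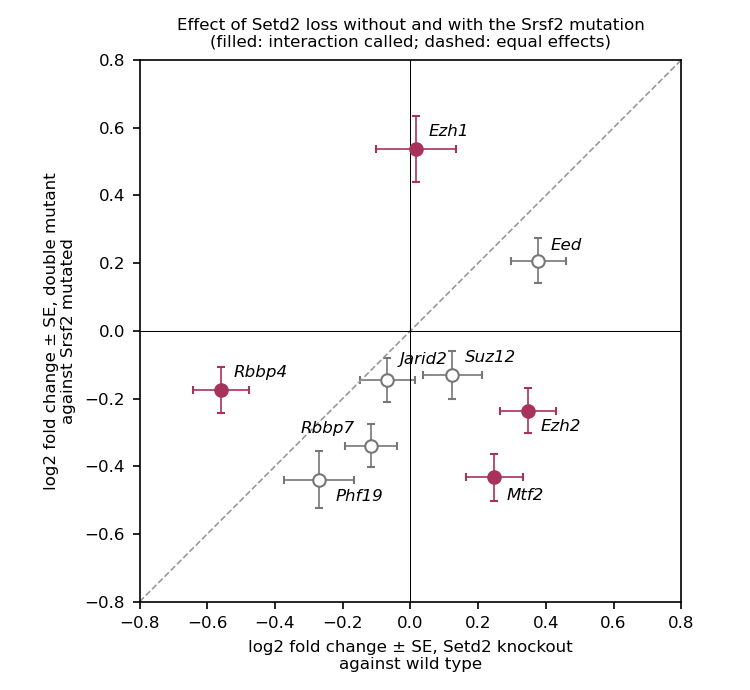
Log2 fold change with SE of Setd2 knockout against wild type (x axis) and of double mutant against Srsf2 mutated (y axis) for the 9 PRC2 genes; the dashed line marks equal effects and filled points have a called interaction. Ezh2 and Mtf2 lie at the lower right, above 0 in the first comparison and below 0 in the second.

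Most proliferation genes were lower where Ezh2 was higher than in wild type. The summed level of 23 proliferation and E2F target genes was 8006 to 8101 CPM in wild type, 6776 to 6817 with Setd2 knockout, 6641 to 6882 with Srsf2 mutated and 6678 to 6785 in double mutant, with none at 0. In Setd2 knockout against wild type 1 of the 23 rose and 14 fell, and in Srsf2 mutated against wild type 2 rose and 17 fell, in the comparisons where Ezh2 rose. In double mutant 7 rose and 11 fell against Srsf2 mutated (median log2 -0.15), and 3 rose and 13 fell against Setd2 knockout (median -0.22), where Ezh2 fell. Of all tested genes 18.7% rose and 19.9% fell in Setd2 knockout, and 28.5% and 27.8% in Srsf2 mutated, both against wild type. In double mutant the shares were 17.8% and 15.9% against Srsf2 mutated, and 26% and 25.8% against Setd2 knockout. Mki67, the common marker of cycling cells, was 0.70 ± 0.1 (log2, SE) higher in double mutant than in Srsf2 mutated (adjusted p = 4.28e-05), one of the 7 that rose. The FPKM ratio of Ezh2 to Mki67 was 0.1775, 0.1644 and 0.1746 in double mutant and 0.2994, 0.2759 and 0.4515 in Srsf2 mutated. It was 0.3159 and 0.2966 in wild type and 0.3348 and 0.3486 with Setd2 knockout. Since Mki67 rose in double mutant against Srsf2 mutated while 11 of the 23 fell, this ratio does not stand for the list.

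The genes whose profile over the 10 libraries was most like that of Ezh2 were Gtpbp4, Rbm34, Bccip, Nasp and Adss. Likeness was the mean absolute difference of log2(CPM + 1) from each gene's own mean, over 10810 genes, and these 5 differed by 0.0372 to 0.0494. Nasp, a chaperone of histone H3, was at 135.7 ± 1.5 CPM in wild type (SD, n = 2), 166.9 ± 0.571 with Setd2 knockout (n = 2), 178.5 ± 7.63 with Srsf2 mutated (n = 3) and 143.0 ± 2.4 in double mutant (n = 3). Among the members Suz12 came nearest to Ezh2 by this measure, at rank 239 (0.106), and Ezh1 was furthest, at rank 5511 (0.295). The measure takes in size as well as direction, so a gene that changed little can rank near. Jarid2, not called in any comparison, was at rank 471. Eed, called higher with Ezh2 in both single mutants, was at rank 1687.

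The remaining accessory subunits of PRC2 included larger changes than any of the 9 genes above. Phf1, the third Polycomb-like protein, rose where Mtf2 and Phf19 fell: it was at 4.964 and 7.644 CPM in wild type, 10.59 and 11.32 with Setd2 knockout, 14.99, 13.74 and 19.39 with Srsf2 mutated, and 30.71, 29.59 and 30.87 in double mutant. No group overlapped another. Phf1 was 0.92 ± 0.14 (log2, SE) higher in double mutant than in Srsf2 mutated (adjusted p = 7.76e-05) and 1.47 ± 0.164 higher than in Setd2 knockout (adjusted p = 1.49e-06). Epop, an accessory subunit that also binds elongin, was at 8.443, 10.04 and 8.871 CPM in double mutant, below 19.73, 22.56 and 25.74 in Srsf2 mutated, and fell by 1.31 ± 0.123 (adjusted p = 4.33e-07). Of 5 tested genes of this list, 3 rose and 1 fell in Setd2 knockout against wild type, 3 rose in Srsf2 mutated against wild type, 2 rose and 1 fell in double mutant against Srsf2 mutated, and 2 rose and 2 fell against Setd2 knockout. The list medians were 0.60, 0.46, 0.03 and -0.27. Of all tested genes 18.7% rose and 19.9% fell in the first of these comparisons, and 28.5% and 27.8% in the second. For double mutant the shares were 17.8% and 15.9% against Srsf2 mutated, and 26% and 25.8% against Setd2 knockout. With upper-quartile scaling and with total counts only 1 rose and 2 fell in double mutant against Srsf2 mutated.

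PRC1, the complex that binds the PRC2 mark through its Cbx subunits and ubiquitinates histone H2A, had more genes lower than higher. Of 24 tested genes, 2 rose and 13 fell in double mutant against Srsf2 mutated (median log2 -0.24), and 3 rose and 16 fell against Setd2 knockout (median -0.42). Against wild type 5 rose and 8 fell in Setd2 knockout (median -0.19) and 4 rose and 11 fell in Srsf2 mutated (median -0.18). Of all tested genes 18.7% were higher and 19.9% lower in Setd2 knockout, and 28.5% and 27.8% in Srsf2 mutated, both against wild type. In double mutant 17.8% were higher and 15.9% lower against Srsf2 mutated, and 26% and 25.8% against Setd2 knockout. With median-of-ratios scaling the PRC1 count in double mutant against Setd2 knockout became 4 higher and 13 lower. With total counts only the count in Setd2 knockout became 6 higher and 3 lower, and in Srsf2 mutated it became 4 and 7 with either of these scalings (upper-quartile or total counts). Scmh1, a Polycomb group protein, fell by 0.90 ± 0.0753 (log2, SE) in double mutant against Srsf2 mutated (adjusted p = 1.11e-07), from 38.61 ± 0.768 to 20.66 ± 1.23 CPM (SD, n = 3 each). Pcgf2, a subunit of canonical PRC1, fell by 1.57 ± 0.179 (adjusted p = 3.79e-06), from 6.581 ± 1.06 to 2.212 ± 0.207 CPM. Bcorl1, an X-linked corepressor of a variant PRC1, was at 52.29 and 54.01 CPM in wild type and at 14.71 to 16.18 in Srsf2 mutated, a fall of 1.77 ± 0.0848 (adjusted p = 9.36e-11). Cbx7, the reader subunit known from stem cells, rose by 0.88 ± 0.123 in Setd2 knockout (adjusted p = 4.25e-05) and by 1.16 ± 0.115 in Srsf2 mutated (adjusted p = 3.9e-07), both against wild type.

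The enzymes that remove the H3K27 mark were led by Kdm6b, which is known to be induced in inflammation. It was at 49.75 and 57.23 CPM in wild type, 48.11 and 49.77 with Setd2 knockout, 266.1, 290.9 and 214.8 with Srsf2 mutated, and 300.8, 281.7 and 268.4 in double mutant. Every library with mutated Srsf2 was above every library without it. Kdm6b rose by 2.27 ± 0.115 (log2, SE) in Srsf2 mutated against wild type (adjusted p = 1.82e-10) and by 2.53 ± 0.116 in double mutant against Setd2 knockout (adjusted p = 3.34e-11). In the same comparisons 9 of 12 and 10 of 12 immediate early and heat shock genes were higher, against 28.5% and 26% of all tested genes. Their sum was 2277 to 3747 CPM in wild type and 8874 to 9195 in Srsf2 mutated, and their part in the result was not tested. Kdm6a, the X-linked enzyme, was 0.51 ± 0.115 higher in double mutant than in Setd2 knockout (adjusted p = 0.00157; 0.0516 without Setd2 knockout library 2). Uty, its Y-linked counterpart, had 0 counts in wild type and Setd2 knockout and averaged 12.02 and 14.03 CPM in Srsf2 mutated and double mutant, as the other Y-linked genes did. The fall of Kdm6a in Setd2 knockout against wild type (-0.40 ± 0.125, adjusted p = 0.0193) by edgeR was lost without wild type library 1 (adjusted p = 0.131) or Setd2 knockout library 1 (0.0517) or 2 (0.15), with upper-quartile scaling (0.0646), with the stricter filter (0.0884) and with total counts only (0.3). In double mutant against Srsf2 mutated Kdm6a was at 0.25 ± 0.102 (adjusted p = 0.073), and was called without Srsf2 mutated library 2 (0.00558), without a filter (0.0143) and with the replicate block (0.0336).

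Genes outside PRC2 that share Rbbp4 and Rbbp7 were counted as well, since a change in these 2 members does not belong to PRC2 alone. Of 17 tested genes of NuRD, Sin3, CAF-1 and related complexes, 2 rose and 4 fell in Setd2 knockout against wild type, 1 rose and 7 fell in Srsf2 mutated against wild type, 2 rose and 6 fell in double mutant against Srsf2 mutated, and 2 rose and 8 fell against Setd2 knockout. The list medians were -0.07, -0.11, -0.13 and -0.23. Of all tested genes 18.7% rose and 19.9% fell in the first comparison, and 28.5% and 27.8% in the second. In the comparisons of double mutant they were 17.8% and 15.9% against Srsf2 mutated, and 26% and 25.8% against Setd2 knockout. With upper-quartile scaling the count in Setd2 knockout became 2 higher and 0 lower, and with total counts only 5 and 0; 2 genes were called without wild type library 2 and 1 without either Setd2 knockout library. In double mutant against Srsf2 mutated total counts only gave 1 higher and 11 lower, and 5 were called with any 1 of the double mutant libraries left out. Mta1, a NuRD subunit, fell by 0.53 ± 0.0696 (log2, SE) in Srsf2 mutated against wild type (adjusted p = 8.72e-06) and by 0.85 ± 0.0695 in double mutant against Setd2 knockout (adjusted p = 4.15e-08). Mbd2, the NuRD subunit that binds methylated DNA, rose by 0.57 ± 0.0582 in double mutant against Srsf2 mutated (adjusted p = 1.13e-06).

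Lists of opposing enzymes moved in both directions. Of 10 tested Trithorax and COMPASS genes, whose complexes methylate H3 at lysine 4 or 36 and oppose Polycomb, 3 rose and 4 fell in Setd2 knockout and 2 rose and 4 fell in Srsf2 mutated, both against wild type (medians 0.15 and -0.00096). In double mutant 2 rose and 2 fell against Srsf2 mutated, and 0 rose and 4 fell against Setd2 knockout (medians 0.0073 and -0.21); 8 were called against Setd2 knockout when only those groups were fitted. With total counts only 4 Trithorax genes were higher and 1 lower in Setd2 knockout against wild type, and in double mutant 0 were higher and 4 lower against Srsf2 mutated and 0 and 6 against Setd2 knockout. Men1, which tethers these enzymes, fell by 0.77 ± 0.0792 (log2, SE) in Srsf2 mutated against wild type (adjusted p = 6.09e-07). Of 5 tested genes of the H2A deubiquitinase complex 1 rose and 1 fell in Setd2 knockout and 2 rose and 2 fell in Srsf2 mutated against wild type. In double mutant 1 rose against Srsf2 mutated, and 2 rose and 2 fell against Setd2 knockout. Beside both lists, 18.7% of all tested genes rose and 19.9% fell in Setd2 knockout, and 28.5% and 27.8% in Srsf2 mutated, against wild type. In double mutant the shares were 17.8% and 15.9% against Srsf2 mutated, and 26% and 25.8% against Setd2 knockout. In Setd2 knockout against wild type 4 Trithorax genes were called without Setd2 knockout library 1, and 1 deubiquitinase gene was called without wild type library 1 or Setd2 knockout library 2 and 0 without wild type library 2 or Setd2 knockout library 1. In Srsf2 mutated 2 deubiquitinase genes were called without wild type library 1. In double mutant against Srsf2 mutated 2 Trithorax genes were called without double mutant library 2 or 3, and of the deubiquitinase genes 2 without Srsf2 mutated library 2 or 3 and 0 without double mutant library 1 or 3.

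**Figure D5:**
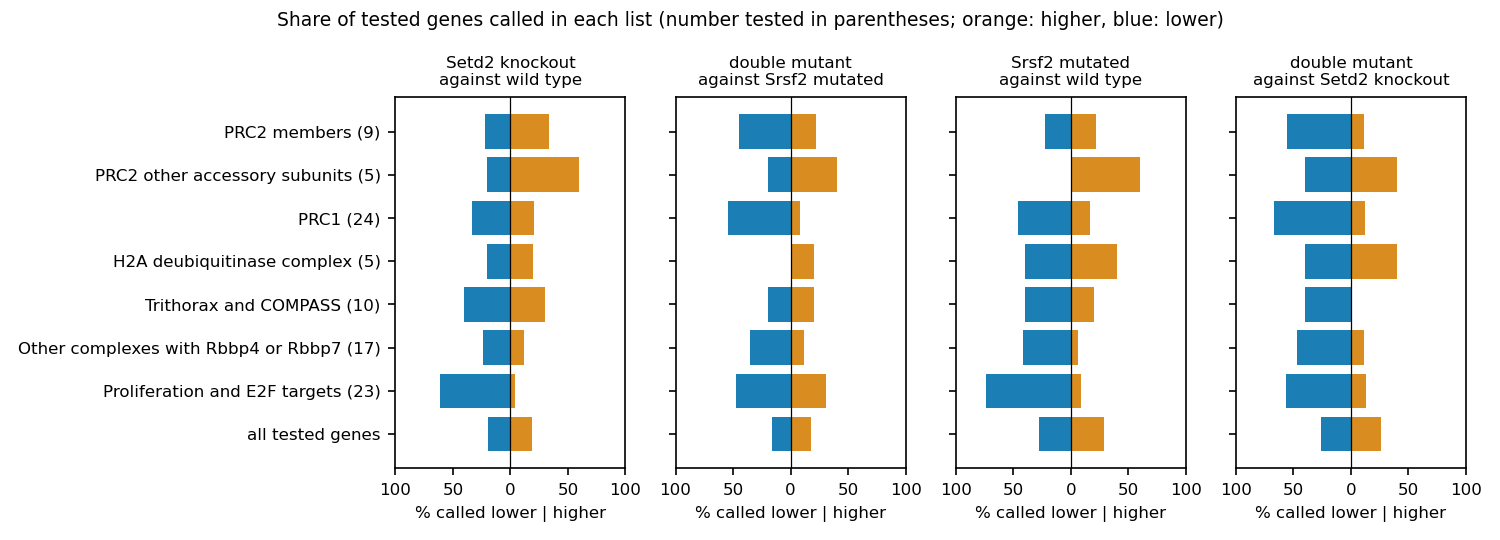
Percent of the tested genes of each list called higher (orange, to the right) and lower (blue, to the left) in the 4 comparisons, with all tested genes in the lowest bar; known PRC2 targets and H3K27 demethylases, which hold genes that passed the filter only where they are high, are not drawn. PRC1 reaches 16 of 24 genes lower in double mutant against Setd2 knockout, where 25.8% of all genes were lower.

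Known targets of PRC2 were mostly silent: of 23 such genes, taken from what is known in other cells, 7 passed the filter. Some of the 7 passed only through the groups where they are high, so no count over the 7 is given. Hmga2, a fetal chromatin gene, was at 3.035 and 2.987 CPM in wild type, 6.438 and 5.057 with Setd2 knockout, 5.85, 5.851 and 7.391 with Srsf2 mutated, and 4.009, 3.74 and 5.211 in double mutant. Wild type lay below all 8 mutant libraries. Hmga2 rose by 0.93 ± 0.218 (log2, SE) in Setd2 knockout (adjusted p = 0.00313) and by 1.08 ± 0.203 in Srsf2 mutated (adjusted p = 0.00031), where Ezh2 rose too. Its interaction was -1.49 ± 0.279 (adjusted p = 0.00066). Lhx2 and Cdkn2a were near the limit of counting: Lhx2 had 1 and 2 reads in wild type and 38, 38 and 56 in Srsf2 mutated, and Cdkn2a had 0 and 4 reads in wild type, 1 and 6 with Setd2 knockout, 30, 28 and 48 with Srsf2 mutated and 47, 24 and 43 in double mutant. None of the 7 reached the stricter filter of 10 CPM in at least 2 libraries. The counts do not show H3K27 methylation, splice forms or protein.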

How the data were processed

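The authors deposited 3 tables, each of a pair of groups, with whole-number read counts per gene and library, FPKM, the listed gene length (per the file headers), and their own log2 fold changes, p-values and a mean normalised count (a score of abundance). The FPKM equalled count, length and library total combined. The submitters' processing notes name, without roles, the aligners HISAT2 2.0.5 and STAR 2.6.1a, the counters HTSeq 0.9.1 and featureCounts 2.0.1, and SAMtools 1.7, DESeq2 1.22.2 and Seurat 3.2.0. The authors' mean count for double mutant against Srsf2 mutated did not follow from the deposited counts (0.545% of genes within 1%, against 100% in the other tables), so their statistics were not used.

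The 5 libraries present in 2 tables had identical counts, and joining used the Ensembl identifier; 27 symbols turned into dates were restored. One edgeR 4.0.16 (R 4.3.3) quasi-likelihood model with TMM scaling and filterByExpr took in all 10 libraries and their groups; 5 contrasts were tested and p was adjusted over 19289 genes (Benjamini-Hochberg, threshold 0.05, either direction). The script was tested on simulated data. Alternatives were other scalings, no filter, a stricter filter (10 CPM in 2 libraries), a replicate block, only the compared groups, DESeq2 1.42.0 and each library left out; total counts without scaling factors was added after seeing the data. A lone library left in a group is assumed to vary like the others. The library totals limit precision, and the standard errors of the fit take in the spread between libraries as well as counting error.

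The 9 members and the lists were chosen with earlier results of these data known. Named are the members, Setd2, Srsf2, genes from the 3 smallest adjusted p of each list and comparison, the 5 genes most like Ezh2, and markers. Positions and exons are from GENCODE M21 (GRCm38) and promoters from RefSeq.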

Additional observations from a re-analysis of the deposited data

Results flagged for a closer look

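Of the named genes, 23 were called for the interaction term of the edgeR fit (adjusted p under 0.05), as were 31.9% of all tested genes. List genes were named partly for a small adjusted p in this same term, so the count cannot be compared with that share. The result for Wdr5 changed in 13 of 17 alternatives, and its sign reversed with total counts only. The interaction calls of Cbx2, Cbx7, Pcgf2 and Scmh1 were not followed gene by gene through the alternatives. Some other calls were lost: Foxk1 with upper-quartile scaling, Foxk1 and Kdm6a with total counts only, and Kmt2d with DESeq2. Kmt2d and Mta1 were also lost without double mutant library 3. Epop, Ash1l and Igf2bp3 changed only where 1 library was left in a group. Among the PRC2 members the interaction, on the log2 scale, was -0.58 for Ezh2, -0.68 for Mtf2, 0.52 for Ezh1 and 0.39 for Rbbp4. Among accessory and PRC1 genes it was -0.67 for Epop, -0.73 for Lcorl, 1.0 for Bcorl1, -0.81 for Cbx2, -0.88 for Cbx6, -0.63 for Cbx7, -1.32 for Pcgf2, -1.15 for Pcgf6 and -0.43 for Scmh1. Among enzymes and partners of other complexes it was 0.65 for Kdm6a, 0.58 for Foxk1, -0.64 for Ash1l, -0.69 for Kmt2d, 0.24 for Wdr5, -0.51 for Hdac2, 0.56 for Mbd2 and -0.32 for Mta1. Among known targets it was -1.49 for Hmga2 and -2.27 for Igf2bp3, which had 9 and 18 reads in wild type. No group held 4 or more libraries, so single libraries were not screened.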

How the results depend on the processing

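Of 621 alternative values for the members, 513 kept their direction and their side of the threshold, 49 lost a call, 34 gained one and 25 changed sign, none of them called on either side; 15 of 25 calls held in every alternative. For the other named genes the counts were 1473, 109, 21 and 6 of 1609. The sign changes in Setd2 knockout against wild type were Jarid2 with upper-quartile scaling (0.0234), the stricter filter (0.0484) and total counts only (0.149), Rbbp7 with the stricter filter (0.000855) and total counts only (0.101), Foxk2 (0.0651) and Kdm6b (0.0886) with total counts only, and, without wild type library 2, Ezh1 (-0.00876) and Suz12 (-0.0196). In Srsf2 mutated against wild type Rbbp7 (-0.0141) turned positive with median-of-ratios scaling (0.0142), upper-quartile scaling (0.086), the stricter filter (0.14), total counts only (0.117), only the compared groups (0.00656), DESeq2 (0.0142), and without wild type library 1 (0.031) or Srsf2 mutated library 1 (0.0149) or 2 (0.0182); Kdm6a did with the stricter filter (0.0144), and Suz12 (-0.11) and Mtf2 (-0.0527) turned negative without wild type library 2. In double mutant against Setd2 knockout Jarid2 turned negative with upper-quartile scaling (-0.0309), no filter (-0.000788), total counts only (-0.17), and without Setd2 knockout library 1 (-0.00821) or 2 (-0.0668) or double mutant library 3 (-0.00908), and Ezh1 with total counts only (-0.0677). With 1 library left out the highest values of these were 0.0433 for Ezh1 and 0.28 for Suz12 in Setd2 knockout, 0.19 for Suz12 and 0.0989 for Mtf2 in Srsf2 mutated, and 0.0606 for Jarid2 in double mutant, and the lowest for Rbbp7 in Srsf2 mutated was -0.0678. In the interaction total counts only turned Bap1 (-0.118), Kdm6b (-0.0519) and Wdr5 (-0.0749), of which Wdr5 had been called. The stricter filter called 6660 genes in Srsf2 mutated against wild type, against 10869. In the interaction 7 members were called with the stricter filter and 7 with total counts only, against 4; the cause was not tested. The median over all genes moved by up to 0.0998 (interaction -0.146) with upper-quartile scaling, and by 0.216, 0.132, -0.101, -0.185 and -0.317 with total counts only.

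With 1 library left out, members called ranged from 3 to 5 in Setd2 knockout and 4 to 4 in Srsf2 mutated against wild type, 5 to 7 in double mutant against Srsf2 mutated, 3 to 5 against Setd2 knockout, and 2 to 5 in the interaction. Genes called ranged from 4792 (without Setd2 knockout library 1) to 5926, 8718 to 11498, 5331 to 6783, 7972 to 9211 and 4472 to 7567.

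No pairing of libraries by replicate number was seen (13 same-number pairs, correlation of deviations -0.0278 to 0.0398, 0 over 0.1). In wild type and Setd2 knockout, with 2 libraries each, the deviations mirror each other, so the pairs are not independent checks. With the replicate block 4, 4, 7, 5 and 4 members and 7513, 10501, 6642, 9756 and 6188 genes were called, in the order above; Phf19 in Setd2 knockout against wild type (adjusted p = 0.0547) and Eed in double mutant against Setd2 knockout (0.0592) lost their call and Rbbp4 in double mutant against Srsf2 mutated gained one (0.0376).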
